A study of Mus musculus with 12 samples.

Results

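A set of 52 genes of mitosis, the spindle and the spindle checkpoint was followed across newborn mouse forebrains of 4 genotypes. The members were listed by name, and each was read by the probe set that carries its symbol alone, taking the one with the highest mean over the arrays. Of the 52 genes, 51 had such a probe set, among 19938 genes so read, and no probe set listed under Ccnb1 alone was used. Dim genes were left out: to be tested, a gene had to exceed the 40th percentile of all probe sets (6.18 to 6.40) on 3 or more of the 12 arrays. This left 46 members among 14195 genes, and Bub1b, Spc24, Knstrn, Kif2c and Kif20a stayed below this limit. Of the 46, 12 passed it only through GBS arrays (Bub1, Ttk, Nuf2, Birc5, Kif15, Kif18a, Kif4, Nusap1, Aspm, Kif14, Anln and Cdc25c), so their presence among the tested genes is not independent of their level in GBS. For 18 of the 46, Bub1 among them, no Control array exceeded the limit, so the folds given for these describe values near the dim end of the array and are not exact.

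RNA came from whole tissue of untreated mice at postnatal day 0, with 1 Affymetrix Mouse Gene 1.0 ST array for each of 3 biological replicates per genotype. GBS was tumor tissue of hGFAP-cre::Ctnnb1(ex3)Fl/+SmoM2Fl/+ mice, which carry both alleles and Cre. GS was forebrain of hGFAP-cre::SmoM2Fl/+ mice, GB was forebrain of hGFAP-cre::Ctnnb1(ex3)Fl/+ mice, and Control was forebrain of Ctnnb1(ex3)Fl/+SmoM2Fl/+ mice, which carry both floxed alleles without Cre. SmoM2 is a constitutively active form of Smoothened, the signal transducer of the hedgehog pathway, and removal of the floxed Ctnnb1 exon leaves a beta-catenin that escapes degradation. Cre came from the human GFAP promoter, a driver of expression in radial glia, the stem cells of the embryonic brain, and is present in all groups but Control. In such tissue a larger share of dividing cells and more RNA per dividing cell cannot be told apart.

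The genes followed here act when a cell divides. Condensins and topoisomerase II compact and untangle the chromosomes, kinetochores on the centromeres bind spindle microtubules, and the spindle checkpoint holds back separation until every kinetochore is attached. Cyclin-dependent kinase drives entry, ubiquitin-mediated destruction of cyclins and securin drives exit, and a central spindle and contractile ring divide the cell. Transcripts of many of these genes are made mainly in late S, G2 and M phases, and radial glia and intermediate progenitors are the main dividing cells of the developing forebrain. Promoters of such genes often carry CCAAT boxes, which bind NF-Y, and the cell cycle gene homology region (CHR), which binds the MuvB complexes together with B-MYB or FOXM1.

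The array medians lay between 6.52 and 6.69 on the log2 scale, and the values of the whole table between 2.82 and 13.83. The labelled tissue was checked against marker genes. All 12 listed markers of postmitotic neurons and 11 of 12 of radial glia passed the limit on dim genes, and Nes did not. The median of 1194 olfactory and vomeronasal receptor genes, which serve as a floor in brain, was 4.92, 4.84 and 4.88 in GBS, 4.88, 4.96 and 5.23 in GS, and 5.07, 5.35 and 5.02 in GB, against 5.17, 5.12 and 5.23 in Control. GS replicate 3, GB replicate 2 and Control replicate 3 were the highest of their groups. Leaving out these 3 arrays together, named the 3 deviating arrays below, was among the alternatives tried. Control replicate 3 lay only slightly above Control replicate 1 (5.23 against 5.17). GBS replicate 1, the highest in GBS, was kept. Of the receptor genes, 208 were tested. In GBS against Control, 21 of them were called lower and 0 higher, against 4.35% and 11% of all genes. Their median difference was -0.37, so the receptor genes themselves read lower in GBS. Xist, the transcript of the inactive X chromosome, read between 8.66 and 10.83 in replicates 2 and 3 of GS and of GB and at most 5.02 in the other arrays, all GBS and Control arrays included.

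Promoter sequence was set beside the members, since many of them moved together. Windows of 250 bases before the transcription start were available from RefSeq (GRCm38.p6) for 43 of the 52 members, all but Smc4, Spc24, Aurkb, Incenp, Tpx2, Kif20a, Ccna2, Cdc25c and Foxm1. They were searched on both strands for CCAAT and for the CHR letters TTTGAA and TTTAAA, with any overlap between the motifs left in. CCAAT was found in 30 of the 43 members (69.8%), against 38.7% of the 11253 tested genes that had a window, tested members included. The 43 members also hold Bub1b, Knstrn, Kif2c and Ccnb1, which were not tested, so the sets compared are not drawn alike. A CHR match was found in 23 members (53.5%), against 21.1% of those tested genes, and both motifs in 19 (44.2%), against 9.22%. At least 2 CCAAT boxes stood in 19 members, against 13.8% of the tested genes. A gene with several starts, as 4 members had, was counted where any of its windows held the motif, and a match describes letters and not a bound site. The windows shown are those of 5 members called higher in GBS whose array values are given (Mki67, Top2a, Bub1, Kif11, Prc1), of a cyclin with 3 CCAAT boxes (Ccnb2), of a changed member with neither motif (Nuf2) and of a member with both motifs whose level was not called changed (Cdc20). Each is written 5′ to 3′ on the gene's strand and ends at the base before the start, with motif matches in capitals.
Mki67 (chr7:135716380-135716629, minus strand): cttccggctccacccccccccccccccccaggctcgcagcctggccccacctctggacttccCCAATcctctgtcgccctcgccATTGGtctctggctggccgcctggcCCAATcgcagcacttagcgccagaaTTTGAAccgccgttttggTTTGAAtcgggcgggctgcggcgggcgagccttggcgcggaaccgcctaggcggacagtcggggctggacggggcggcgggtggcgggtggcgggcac
Top2a (chr11:99024190-99024439, minus strand): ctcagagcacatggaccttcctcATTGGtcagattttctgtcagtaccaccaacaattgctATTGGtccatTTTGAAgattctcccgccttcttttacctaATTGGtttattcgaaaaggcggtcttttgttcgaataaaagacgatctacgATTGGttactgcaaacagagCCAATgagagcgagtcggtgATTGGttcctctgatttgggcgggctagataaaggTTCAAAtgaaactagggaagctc
Bub1 (chr2:127831860-127832109, minus strand): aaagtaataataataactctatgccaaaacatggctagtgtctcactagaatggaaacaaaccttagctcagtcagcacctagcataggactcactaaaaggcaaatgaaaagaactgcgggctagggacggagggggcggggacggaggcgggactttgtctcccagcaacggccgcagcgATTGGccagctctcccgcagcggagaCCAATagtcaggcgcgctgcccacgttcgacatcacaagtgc
Kif11 (chr19:37376132-37376381, plus strand): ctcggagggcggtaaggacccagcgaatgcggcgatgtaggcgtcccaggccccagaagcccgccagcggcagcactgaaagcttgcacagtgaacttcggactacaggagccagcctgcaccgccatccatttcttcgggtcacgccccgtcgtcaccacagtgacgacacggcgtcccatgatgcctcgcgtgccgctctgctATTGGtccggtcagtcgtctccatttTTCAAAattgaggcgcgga
Prc1 (chr7:80294226-80294475, plus strand): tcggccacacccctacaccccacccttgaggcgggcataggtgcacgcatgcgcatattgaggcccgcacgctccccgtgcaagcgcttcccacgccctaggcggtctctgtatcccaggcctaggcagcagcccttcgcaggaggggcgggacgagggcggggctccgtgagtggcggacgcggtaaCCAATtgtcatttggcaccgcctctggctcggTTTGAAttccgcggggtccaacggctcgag
Ccnb2 (chr9:70421555-70421804, minus strand): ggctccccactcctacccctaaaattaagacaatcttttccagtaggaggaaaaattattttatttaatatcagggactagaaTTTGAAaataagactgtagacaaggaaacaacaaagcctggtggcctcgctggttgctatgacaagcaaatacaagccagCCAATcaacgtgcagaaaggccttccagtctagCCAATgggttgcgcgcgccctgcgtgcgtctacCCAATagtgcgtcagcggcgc
Nuf2 (chr1:169531465-169531714, minus strand): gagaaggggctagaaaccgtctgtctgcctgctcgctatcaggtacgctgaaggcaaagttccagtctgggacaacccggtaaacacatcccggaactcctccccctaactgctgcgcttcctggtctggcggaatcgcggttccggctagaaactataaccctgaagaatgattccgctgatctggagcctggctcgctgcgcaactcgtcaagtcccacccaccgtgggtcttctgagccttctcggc
Cdc20 (chr4:118437344-118437593, minus strand): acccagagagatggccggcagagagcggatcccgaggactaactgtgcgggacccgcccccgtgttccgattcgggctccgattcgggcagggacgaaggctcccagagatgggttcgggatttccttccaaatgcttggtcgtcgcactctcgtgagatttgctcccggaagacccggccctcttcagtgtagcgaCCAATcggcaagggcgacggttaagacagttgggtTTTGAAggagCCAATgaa

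Mki67 held 3 CCAAT boxes and 2 CHR matches, and Kif11 held 1 of each within 45 bases of its start. Bub1 held 2 CCAAT boxes and no CHR match. The window printed for Prc1 is that of its second listed start. Among the members called higher in GBS than in Control that had a window, 22 of 32 held CCAAT and 16 held a CHR match. Among the tested members not called, 6 of 7 held CCAAT and 5 held a CHR match, so the motifs were present in both classes.

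**Figure D1:**
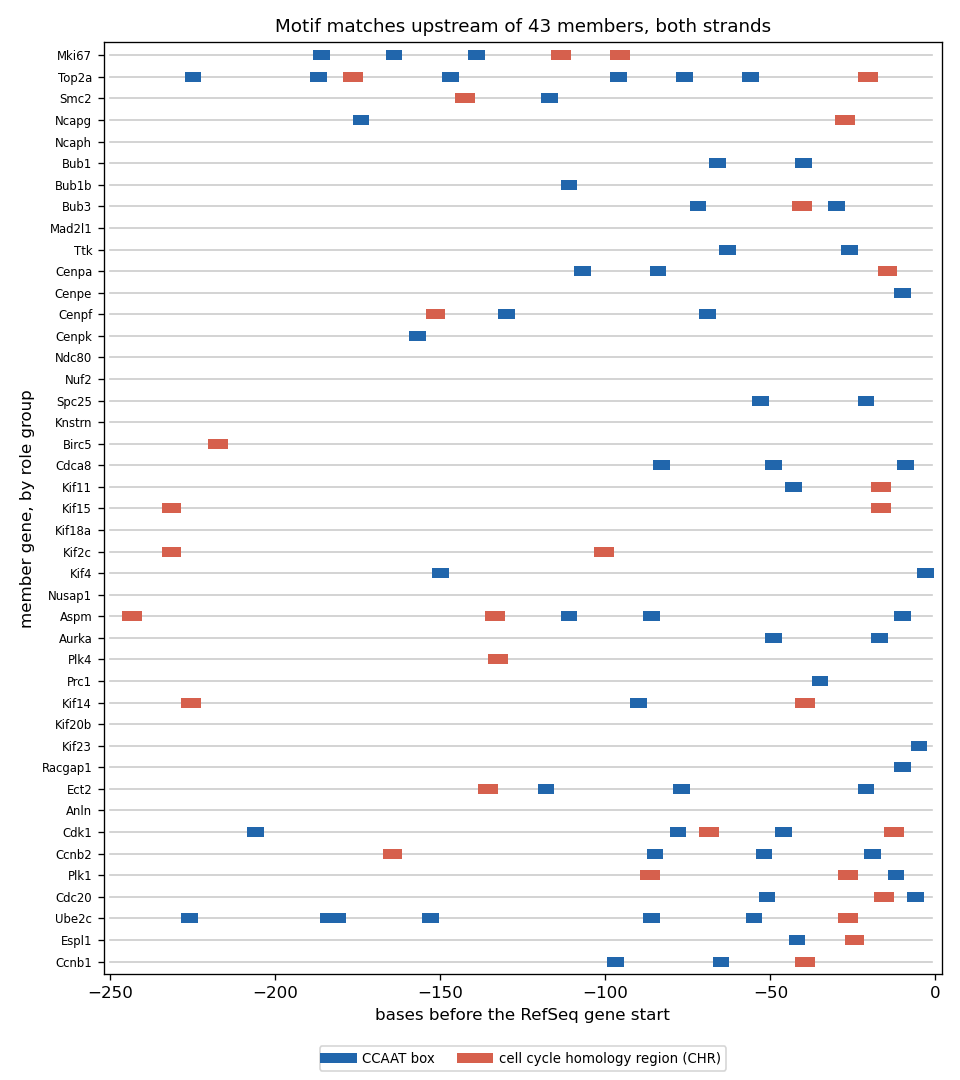
Positions of CCAAT boxes and CHR matches in the 250 bases before the first listed start of each member with a RefSeq window, in bases from the start (x axis), with members down the page by role. Matches stand in members called higher in GBS and in members that were not called, such as Cdc20.

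GBS tumors were compared with Control forebrains to ask how mitotic transcripts stood when both alleles were active. Of the 46 members tested, 37 rose in GBS, against 11% of all 14195 genes, and 0 fell, against 4.35% (two-sided limma test, p adjusted by Benjamini-Hochberg over every tested gene, called under 0.05). At unadjusted p under 0.05, 41 members were higher, against 20.1% of all genes, and 0 were lower, against 18.7%. The rise was at least 2-fold for 29 members, against 3.43% of all genes. The median log2 difference was 1.41 over the members and -0.10 over all genes tested. The members ranged from -0.15 for Espl1 to 2.77 for Bub1. All 3 GBS arrays lay above all 3 Control arrays for 41 members, against 28.8% of all genes. Without the limit on dim genes, 37 of 51 members rose, against 8.04% of all genes, with a median of 1.35. Of the 5 dim members, Bub1b rose in that fit, while Spc24 differed by 0.12 (adjusted p = 0.434), Knstrn, a spindle and kinetochore protein, by 0.47 (0.0665), Kif2c, a microtubule-depolymerising kinesin, by 0.51 (0.0925) and Kif20a, a kinesin of cytokinesis, by 0.44 (0.0533).

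**Figure D2:**
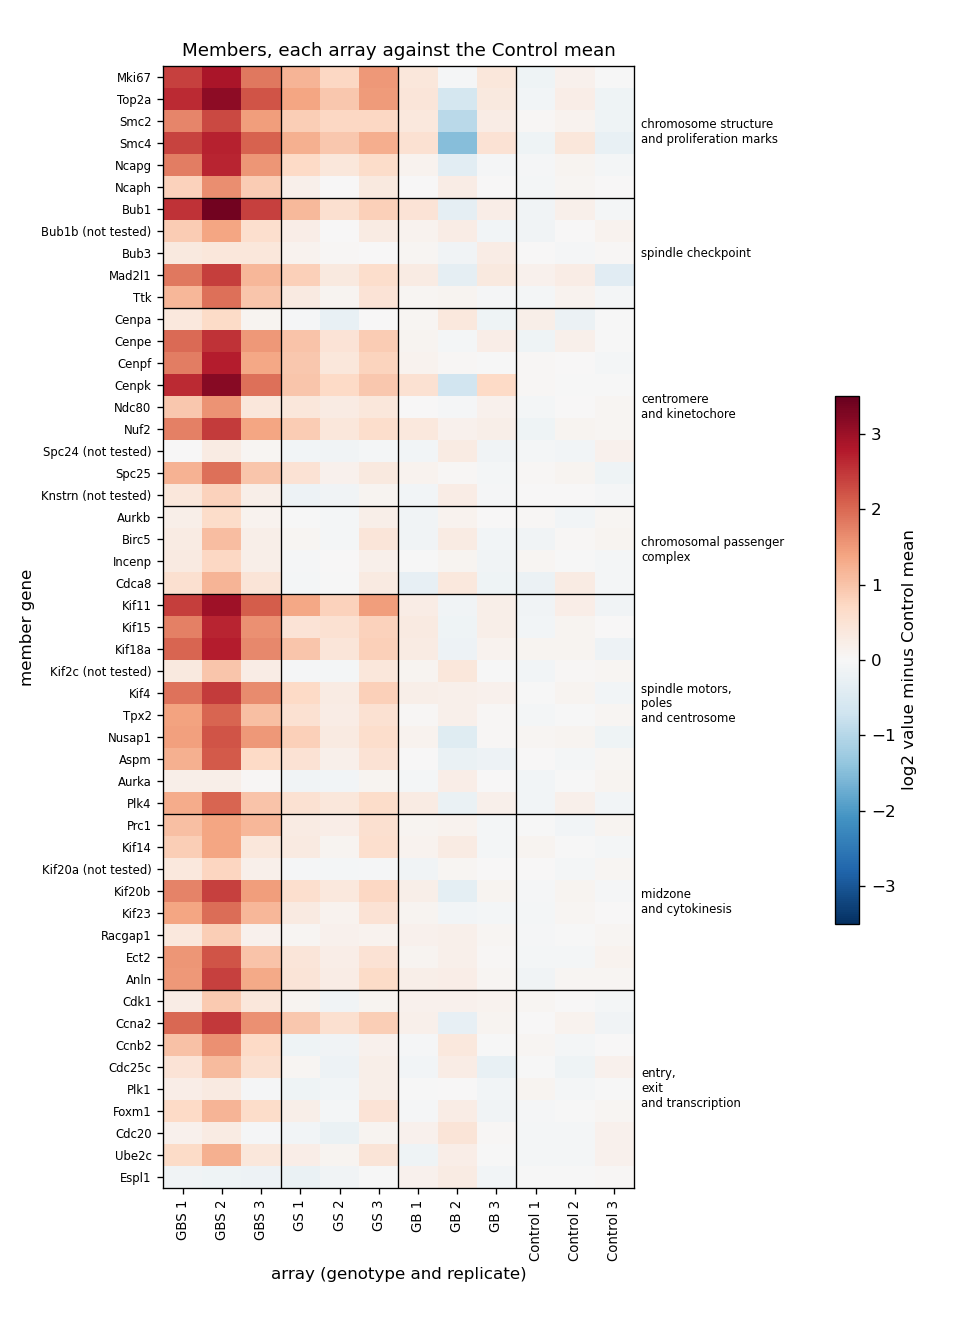
Each member's log2 value minus its Control mean (colour) in each of the 12 arrays (columns), with members grouped by role (rows) and the 5 members below the limit on dim genes marked as not tested. GBS replicate 2 is the darkest column, Smc4, Smc2 and Cenpk are low in GB replicate 2, and the passenger complex has the lowest mean of the 7 roles in each GBS array.

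Marker genes of other cells also differed between the arrays. Averaged over the members, the arrays stood 1.24, 1.81 and 0.99 log2 units above the Control mean in GBS, 0.47, 0.24 and 0.56 above it in GS, and 0.14, -0.03 and 0.07 from it in GB, against -0.03, 0.05 and -0.02 in Control. The 12 neuron markers averaged -0.69, -1.21 and -0.29 in GBS, 0.33, 0.33 and -0.31 in GS, and -0.03, -1.31 and -0.01 in GB, against 0.11, 0.13 and -0.24 in Control. The neuron markers were lowest in GB replicate 2 and GBS replicate 2, while the members were close to Control in the first of these arrays and highest in the second. Of the neuron markers, 5 fell in GBS against Control and 0 rose, with a median of -0.56. The radial glia markers averaged 0.55, 0.62 and 0.59 in GBS, 0.29, 0.20 and 0.18 in GS, and 0.09, -0.11 and 0.20 in GB, against 0.04, 0.00 and -0.04 in Control. Of the 11 tested, 6 rose in GBS against Control and 1 fell. The marker that fell was Fabp7, with a log2 difference of -2.04 (adjusted p = 0.0121). Hes1, Hes5, Notch1 and Sox9 were not called, with differences from -0.12 to -0.02. Of 5 intermediate progenitor markers, 2 rose and 0 fell. Of the tested markers of other cells, 0 of 5 rose and 2 fell for oligodendrocyte precursors, 1 of 4 rose and 0 fell for meninges, and 0 were called of 7 for microglia, 7 for endothelium and 2 for erythroid cells. The part of cell composition in the members' levels was not tested.

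**Figure D3:**
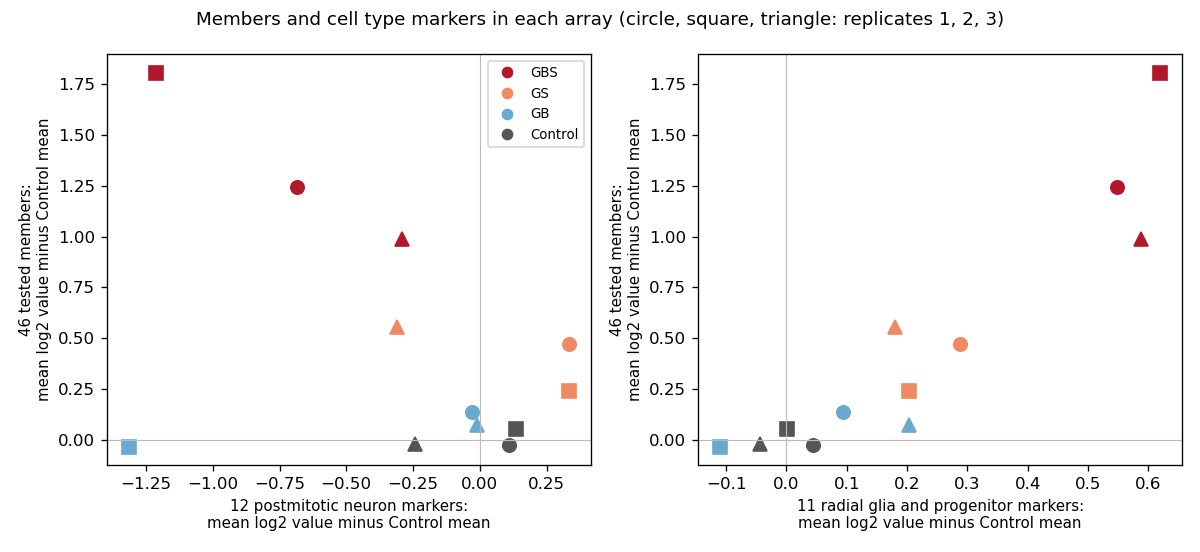
Each point is an array: the mean log2 value minus the Control mean over the 46 tested members (y axis) against the same mean over 12 postmitotic neuron markers (left panel, x axis) or 11 radial glia and progenitor markers (right panel, x axis), coloured by genotype and shaped by replicate. The GBS arrays stand at 0.99 to 1.81 on the y axis, and GB replicate 2 has low neuron markers (-1.31) with a member mean near 0 (-0.03).

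Genes of chromosome structure had the largest median of the 7 roles: all 6 were higher in GBS than in Control, with a median log2 difference of 2.18. Mki67 encodes Ki-67, which coats mitotic chromosomes and is the standard mark of cycling cells. In GBS Mki67 read 9.54, 9.99 and 8.99, in GS 8.34, 7.86 and 8.66 and in GB 7.54, 7.11 and 7.53, against 7.0, 7.29 and 7.14 in Control. Its GBS arrays lay above all others, its GS arrays lay above all GB and Control arrays, and GB and Control overlapped. For Mki67 the difference of GBS from Control was 2.37 ± 0.255 on the log2 scale (5.15-fold, adjusted p = 0.000302). Top2a encodes the topoisomerase that untangles sister chromatids. For Top2a the log2 values were 9.83, 10.33 and 9.41 in GBS, 8.58, 8.16 and 8.71 in GS and 7.63, 6.59 and 7.56 in GB, against 7.12, 7.46 and 7.07 in Control. It showed the same order, with GB replicate 2 below every other array. With a log2 difference of 2.64 ± 0.296, Top2a rose 6.25-fold in GBS against Control (adjusted p = 0.000389). The condensin subunits also rose, Smc4 by 2.37, Ncapg by 2.0, Smc2 by 1.83 and Ncaph by 1.11 log2 units. Smc4 read 9.80, 10.14 and 9.49 in GBS, 8.69, 8.40 and 8.70 in GS and 7.97, 5.95 and 7.95 in GB, against 7.30, 7.84 and 7.18 in Control. GB replicate 2 read far below the other arrays for Smc4, and the Control arrays were themselves spread, with an SD of 0.354. Smc4 was 5.18-fold higher in GBS than in Control, a log2 difference of 2.37 ± 0.449 (SE), with an adjusted p of 0.00718. With the receptor-gene level as a covariate its adjusted p was 0.0617.

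**Figure D4:**
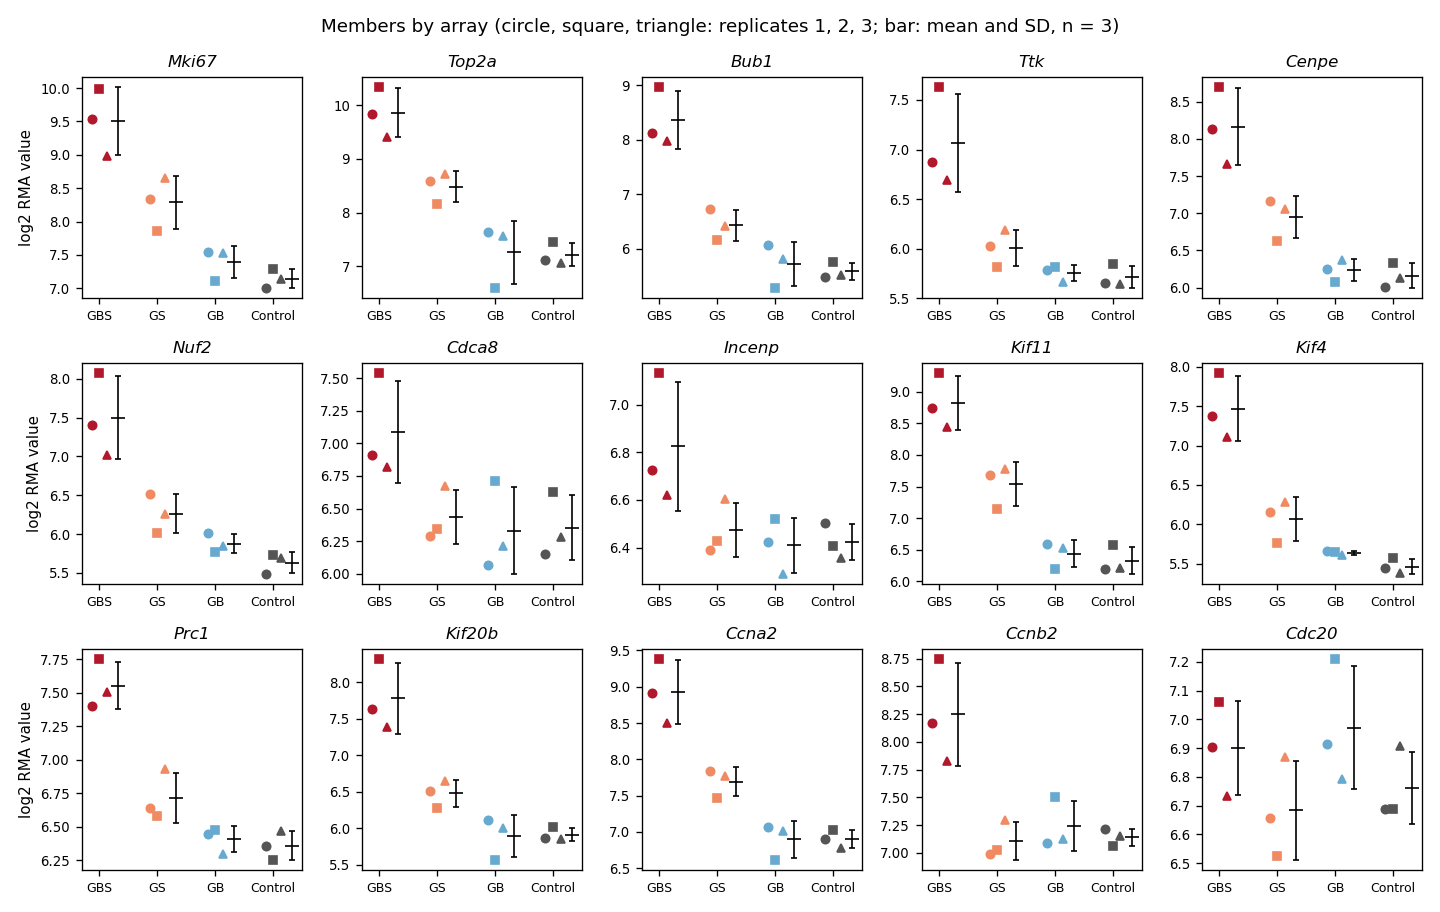
Log2 RMA value in each array (symbols by replicate) with the group mean and SD (bars, n = 3 arrays) for 15 members of the 7 roles, with GBS, GS, GB and Control from left to right and a separate y axis for each gene. The members shown are Cdc20 and those of lowest adjusted p in each role in GBS against Control. The GBS arrays stand above all other arrays for Mki67, Bub1, Kif11 and Prc1, while the groups overlap for Cdc20.

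All 4 tested genes of the spindle checkpoint rose, with a median of 1.58. Bub1 encodes the checkpoint kinase that marks centromeric chromatin, and it had the largest fitted difference of the tested members, against Control arrays that all lay below the limit on dim genes. In GBS Bub1 read 8.12, 8.96 and 7.98, in GS 6.73, 6.16 and 6.41 and in GB 6.06, 5.27 and 5.81, against 5.47, 5.76 and 5.52 in Control. Every GBS array lay above every GS array, and every GS array lay above every GB and Control array. For Bub1 the difference of GBS from Control was 2.77 ± 0.267 on the log2 scale (6.82-fold, adjusted p = 0.000156). Ttk encodes MPS1, the kinase that starts checkpoint signalling. For Ttk the log2 values were 6.88, 7.63 and 6.69 in GBS, 6.03, 5.82 and 6.18 in GS and 5.78, 5.81 and 5.66 in GB, against 5.65, 5.84 and 5.65 in Control. The GBS arrays stood above all others, the GS arrays lay just above the GB arrays, and both overlapped the Control arrays. With a log2 difference of 1.35 ± 0.203, Ttk rose 2.55-fold in GBS against Control (adjusted p = 0.00215). Mad2l1, whose product blocks Cdc20, rose by 1.81 with an adjusted p of 0.00394. Bub3, which carries Bub1 to kinetochores, changed least in this group. Bub3 read 7.23, 7.31 and 7.29 in GBS, 7.01, 6.93 and 6.91 in GS and 6.98, 6.79 and 7.16 in GB, against 6.92, 6.85 and 6.94 in Control. Its GBS arrays lay above the others by a small margin. Bub3 was 1.30-fold higher in GBS than in Control, a log2 difference of 0.38 ± 0.0971 (SE), with an adjusted p of 0.0282. This call ended without any single GBS or Control array, with an adjusted p between 0.0502 and 0.110. Bub1b, which encodes BubR1, was below the limit on dim genes, and without that limit it rose by 0.96 ± 0.177 with an adjusted p of 0.00736.

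Of 7 tested centromere and kinetochore genes, 6 rose, with a median of 1.87. Cenpe encodes the kinetochore motor that carries chromosomes to the spindle equator. In GBS Cenpe read 8.13, 8.69 and 7.66, in GS 7.16, 6.63 and 7.06 and in GB 6.25, 6.08 and 6.38, against 6.01, 6.34 and 6.13 in Control. GBS stood above GS, GS above GB and Control, and the last pair overlapped. For Cenpe the difference of GBS from Control was 2.0 ± 0.229 on the log2 scale (4.01-fold, adjusted p = 0.000426). Nuf2 is part of the Ndc80 complex, the microtubule coupler of the kinetochore, and its printed window held neither motif. For Nuf2 the log2 values were 7.41, 8.07 and 7.02 in GBS, 6.51, 6.02 and 6.26 in GS and 6.01, 5.77 and 5.84 in GB, against 5.48, 5.73 and 5.69 in Control. The groups followed each other without overlap here, though GS replicate 2 and GB replicate 1 were nearly equal. With a log2 difference of 1.87 ± 0.224, Nuf2 rose 3.64-fold in GBS against Control (adjusted p = 0.000581). Cenpk, of the inner kinetochore, rose by 2.58, Cenpf by 1.97, and the Ndc80 complex members Spc25 and Ndc80 by 1.38 and 0.97. The call of Ndc80 ended without any single Control array, with an adjusted p of up to 0.0809 over the alternatives. Cenpa, the histone that marks the centromere, was not called. Cenpa read 7.42, 7.71 and 7.15 in GBS, 7.02, 6.80 and 7.07 in GS and 7.13, 7.42 and 6.90 in GB, against 7.26, 6.86 and 7.03 in Control. Its GBS arrays lay above the GS arrays and overlapped the GB and Control arrays. Cenpa differed by 0.38 ± 0.174 between GBS and Control (adjusted p = 0.134).

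The chromosomal passenger complex had the smallest median of the 7 roles: 1 of 4 genes rose, and the median was 0.46. This complex corrects faulty attachments and is built from Aurora B kinase, INCENP, survivin (Birc5) and borealin (Cdca8). In GBS Cdca8 read 6.91, 7.54 and 6.82, in GS 6.29, 6.34 and 6.67 and in GB 6.07, 6.71 and 6.21, against 6.15, 6.63 and 6.28 in Control. All GBS arrays lay above the others for Cdca8, but the margin over GB replicate 2 was small. For Cdca8 the difference of GBS from Control was 0.74 ± 0.223 on the log2 scale (1.67-fold, adjusted p = 0.0483). Leaving out any single array but GS replicate 3 or GB replicate 2 ended this call, with an adjusted p between 0.0524 and 0.202. For Incenp the log2 values were 6.73, 7.13 and 6.62 in GBS, 6.39, 6.43 and 6.60 in GS and 6.42, 6.52 and 6.29 in GB, against 6.50, 6.41 and 6.36 in Control. The GBS arrays lay above all others for Incenp too, with GBS replicate 3 just above GS replicate 3. Incenp differed by 0.40 ± 0.132 between GBS and Control (adjusted p = 0.0611). It passed without GBS replicate 3 (adjusted p = 0.0468), without GB replicate 2 (0.0272), without the 3 deviating arrays (0.0452), and under 3 further alternatives (0.0316 to 0.0369). Birc5 differed by 0.51 with an adjusted p of 0.119, and Aurkb by 0.32 with an adjusted p of 0.125.

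Of 9 tested genes of spindle motors, poles and the centrosome, 8 rose, with a median of 1.73. Kif11 encodes Eg5, the motor that pushes the spindle poles apart. Kif11 read 8.74, 9.29 and 8.45 in GBS, 7.69, 7.14 and 7.78 in GS and 6.60, 6.19 and 6.53 in GB, against 6.19, 6.57 and 6.21 in Control. The GBS arrays were the highest and the GS arrays stood between them and the GB and Control arrays, which overlapped. Kif11 was 5.67-fold higher in GBS than in Control, a log2 difference of 2.5 ± 0.231 (SE), with an adjusted p of 0.000119. Kif4 encodes a chromosome-bound kinesin of the central spindle. In GBS Kif4 read 7.37, 7.92 and 7.11, in GS 6.15, 5.76 and 6.29 and in GB 5.66, 5.65 and 5.61, against 5.44, 5.57 and 5.37 in Control. The groups followed each other without overlap, GBS above GS, GS above GB and GB above Control. For Kif4 the difference of GBS from Control was 2.01 ± 0.189 on the log2 scale (4.02-fold, adjusted p = 0.000142). Kif18a, which damps chromosome movement, rose by 2.16, and Kif15, which can stand in for Kif11, by 2.0. The spindle assembly factors Nusap1 and Tpx2 rose by 1.73 and 1.5, Plk4, the kinase of centriole duplication, by 1.44, and Aspm, a spindle pole protein lost in microcephaly, by 1.36. Aurka, the kinase of the spindle poles, was not called. For Aurka the log2 values were 7.13, 7.12 and 6.97 in GBS, 6.79, 6.81 and 7.01 in GS and 6.84, 7.16 and 6.94 in GB, against 6.83, 6.91 and 7.01 in Control. Aurka differed by 0.15 ± 0.108 between GBS and Control (adjusted p = 0.271). With the receptor-gene level as a covariate it was called higher, by 0.37 with an adjusted p of 0.0353. The arrays of all 4 groups overlapped.

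Of 7 tested genes of the midzone and cytokinesis, 6 rose, with a median of 1.5. Prc1 encodes the protein that bundles the microtubules of the central spindle. Prc1 read 7.40, 7.75 and 7.51 in GBS, 6.64, 6.58 and 6.93 in GS and 6.45, 6.48 and 6.30 in GB, against 6.36, 6.25 and 6.47 in Control. Its GBS arrays were close together and lay above all others, and its GS arrays lay above the GB and Control arrays. Prc1 was 2.29-fold higher in GBS than in Control, a log2 difference of 1.20 ± 0.123 (SE), with an adjusted p of 0.000236. Kif20b is a kinesin of the last cut between daughter cells. In GBS Kif20b read 7.64, 8.32 and 7.38, in GS 6.51, 6.28 and 6.65 and in GB 6.11, 5.56 and 6.00, against 5.87, 6.01 and 5.86 in Control. The same order held, with GB replicate 2 lowest of all. For Kif20b the difference of GBS from Control was 1.87 ± 0.220 on the log2 scale (3.64-fold, adjusted p = 0.000522). Anln, the scaffold of the contractile ring, rose by 1.75, Ect2, the activator of RhoA at the cell equator, by 1.58, and Kif23, the motor of centralspindlin, by 1.5. Kif14, of the midbody, rose by 0.88, and this call ended without GBS replicate 1 or 2 or any Control array, with an adjusted p of up to 0.0905. Racgap1, the partner of Kif23 in centralspindlin, was not called. For Racgap1 the log2 values were 6.77, 7.27 and 6.55 in GBS, 6.48, 6.56 and 6.53 in GS and 6.57, 6.60 and 6.47 in GB, against 6.38, 6.39 and 6.47 in Control. Its GBS arrays lay above the Control arrays and overlapped those of GS and GB. Racgap1 differed by 0.46 ± 0.149 between GBS and Control (adjusted p = 0.0610). It passed without GBS replicate 3 (adjusted p = 0.0226), without GB replicate 2 (0.0299), without the 3 deviating arrays (0.0367), and under 3 further alternatives (0.0389 to 0.0474).

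Genes of entry, exit and transcription differed among themselves: 6 of 9 rose, and the median was 0.71. Ccna2 encodes cyclin A2, of S and G2 phases. Ccna2 read 8.91, 9.38 and 8.5 in GBS, 7.84, 7.46 and 7.77 in GS and 7.07, 6.61 and 7.01 in GB, against 6.90, 7.02 and 6.78 in Control. GBS stood above GS and GS above GB and Control, which overlapped. Ccna2 was 4.08-fold higher in GBS than in Control, a log2 difference of 2.03 ± 0.206 (SE), with an adjusted p of 0.000221. Ccnb2 encodes a B-type cyclin of mitosis. In GBS Ccnb2 read 8.17, 8.74 and 7.83, in GS 6.99, 7.02 and 7.30 and in GB 7.09, 7.5 and 7.13, against 7.21, 7.06 and 7.15 in Control. Here GBS alone stood out, and GS, GB and Control overlapped. For Ccnb2 the difference of GBS from Control was 1.11 ± 0.203 on the log2 scale (2.15-fold, adjusted p = 0.00628). Foxm1, a transcription factor of G2 and M genes, rose by 0.84, Ube2c, a ubiquitin-conjugating enzyme of the anaphase-promoting complex, by 0.77, the phosphatase gene Cdc25c by 0.71 and Cdk1, the kinase of entry, by 0.53. These last 4 calls ended without GBS replicate 2 (Foxm1, Ube2c, Cdk1), without GBS replicate 3 (Cdk1) or without any single Control array (Ube2c, Cdc25c, Cdk1), with adjusted p up to 0.126, and Cdc25c no longer passed the limit on dim genes without any single GBS array. Cdc20, the activator of the anaphase-promoting complex, was not called. For Cdc20 the log2 values were 6.90, 7.06 and 6.73 in GBS, 6.66, 6.52 and 6.87 in GS and 6.91, 7.21 and 6.79 in GB, against 6.69, 6.69 and 6.91 in Control. All 4 groups overlapped for Cdc20, and GB replicate 2 was the highest array. Cdc20 differed by 0.14 ± 0.138 between GBS and Control (adjusted p = 0.427). Plk1, the kinase of several steps of mitosis, differed by 0.18 with an adjusted p of 0.262. Espl1, which encodes separase, the protease that releases the sister chromatids, was the only member with a negative difference. Espl1 read 6.48, 6.44 and 6.43 in GBS, 6.37, 6.49 and 6.59 in GS and 6.74, 6.88 and 6.49 in GB, against 6.58, 6.58 and 6.64 in Control. Every GBS array lay below every Control array for Espl1. Espl1 differed by -0.15 ± 0.105 between GBS and Control (adjusted p = 0.269).

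The 9 members not called lay within a log2 difference of -0.15 to 0.51, and their means lay between 6.45 and 7.45 in GBS and between 5.97 and 7.16 in Control. Means of the 37 called members lay between 6.68 and 9.86 in GBS and between 5.46 and 7.44 in Control. The lowest Control means of tested members belonged to called ones, such as Kif4 (5.46), Kif18a (5.49) and Bub1 (5.58). These lay below the Control mean of every member not called. Called members lay on 15 chromosomes. Top2a and Kif14 each had a second, dimmer probe set. For Top2a it differed in the same direction, by 0.80. For Kif14 it differed by -0.23, from means of 4.02 in GBS and 4.25 in Control.

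**Figure D5:**
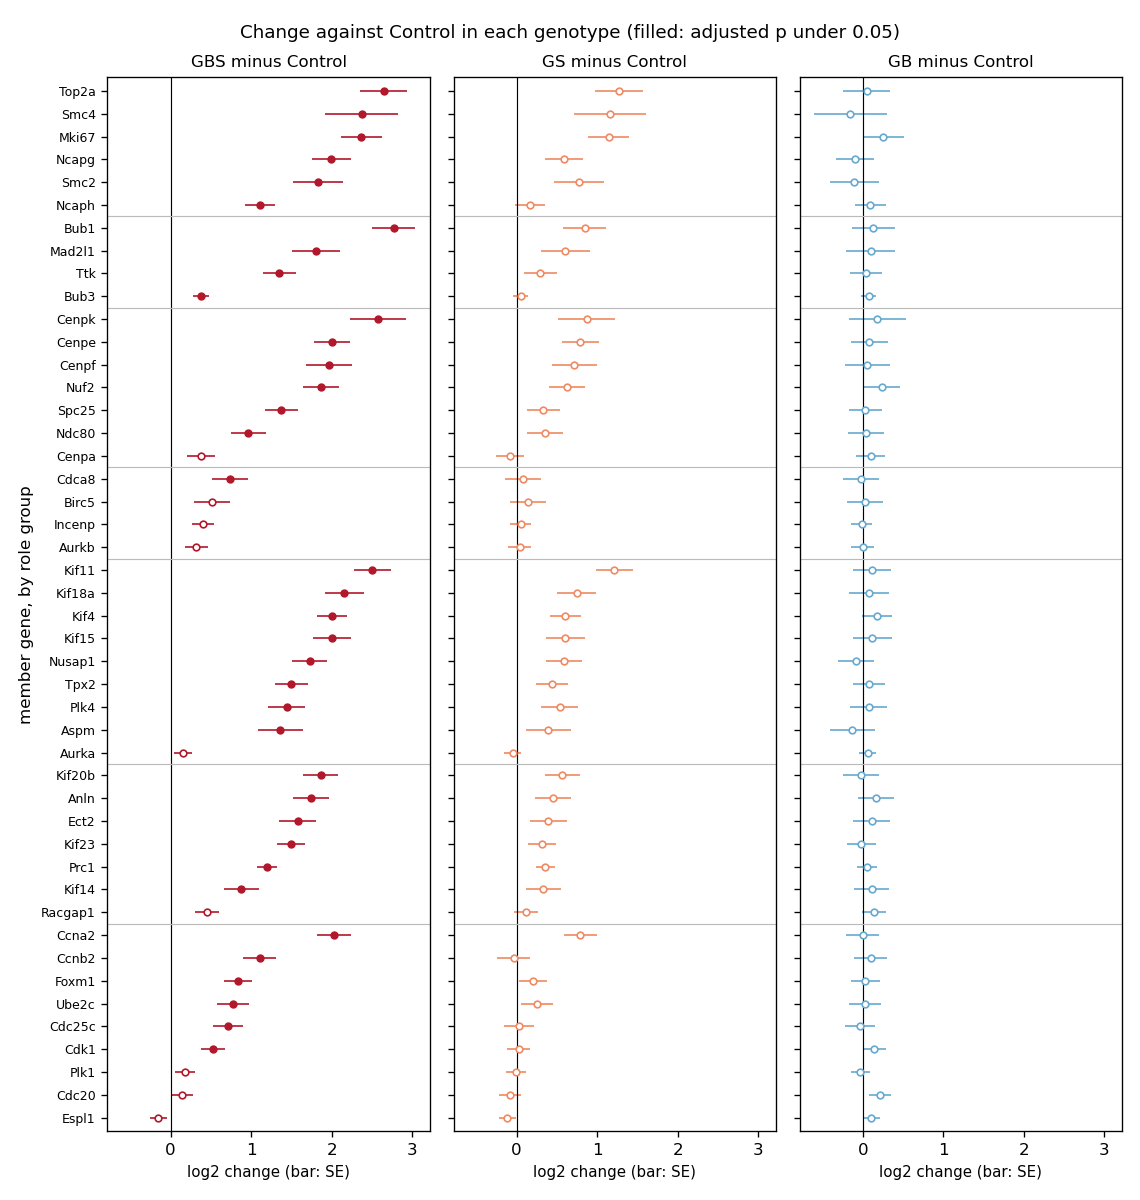
Log2 difference of each tested member with its standard error for GBS against Control, GS against Control and GB against Control, which share the same 3 Control arrays, with members grouped by role, and filled points at an adjusted p under 0.05. Differences reach 2.77 for Bub1 in GBS, and the 4 passenger complex genes lie between 0.32 and 0.74 there.

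GBS was set against GS, which lacks the Ctnnb1 allele. GBS was tumor tissue and GS forebrain, so the allele and the kind of tissue cannot be told apart here. In this comparison 26 of 46 members rose, against 3.56% of all genes, and 0 fell, against 1.51%, with 0 lower at unadjusted p under 0.05, against 7.92%. The median over the members was 1.06, and 23 rose at least 2-fold, against 1.3% of all genes. All GBS arrays lay above all GS arrays for 37 members, against 16.5% of all genes. By role the calls numbered 7 of 9 for motors, poles and centrosome, 5 of 7 for the centromere and kinetochore, 5 of 7 for the midzone, 4 of 6 for chromosome structure, 3 of 4 for the checkpoint, 2 of 9 for entry and exit and 0 of 4 for the passenger complex. Kif4 was 2.64-fold higher in GBS than in GS (log2 1.40 ± 0.189, adjusted p = 0.00211). Bub1 was 3.80-fold higher in GBS than in GS (log2 1.92 ± 0.267, adjusted p = 0.00238). Prc1 was 1.79-fold higher in GBS than in GS (log2 0.84 ± 0.123, adjusted p = 0.00336). Bub1 and Prc1 were called in all 23 alternatives that kept the threshold, and Kif4 in the 20 of them in which it passed the limit on dim genes, the other members losing the call in at least 1. Mki67 was 2.33-fold higher in GBS than in GS (log2 1.22 ± 0.255, adjusted p = 0.0202). Ccnb2 was 2.21-fold higher in GBS than in GS (log2 1.14 ± 0.203, adjusted p = 0.00946). Espl1 differed by -0.03. The count was 36 without the 3 deviating arrays, 12 without GS replicate 2 and 3 with the Xist level as a covariate, and Xist was high in GS replicates 2 and 3 and low in all GBS arrays.

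GBS was also set against GB, which lacks the SmoM2 allele. Here 35 of 46 members rose, against 9.6% of all genes, and 0 fell, against 3.12%, with 1 lower at unadjusted p under 0.05 (Espl1), against 19.8%. The median was 1.39, and 29 members rose at least 2-fold, against 3.26% of all genes. All GBS arrays lay above all GB arrays for 38 members, against 24.2% of all genes. Kif11 was 5.24-fold higher in GBS than in GB (log2 2.39 ± 0.231, adjusted p = 0.000318). Bub1 was 6.24-fold higher in GBS than in GB (log2 2.64 ± 0.267, adjusted p = 0.000466). Ccna2 was 4.09-fold higher in GBS than in GB (log2 2.03 ± 0.206, adjusted p = 0.000466). The calls covered all 6 genes of chromosome structure, 8 of 9 of motors and poles, 6 of 7 of the kinetochore, 6 of 7 of the midzone, 5 of 9 of entry and exit, 3 of 4 of the checkpoint and 1 of 4 of the passenger complex. Cdc20 differed by -0.07 (adjusted p = 0.669) and Espl1 by -0.26 (adjusted p = 0.0984). Without GB replicate 3, Espl1 was called lower, by -0.36 with an adjusted p of 0.0353. The count was 13 when the other 2 genotypes were left out of the fit.

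With SmoM2 alone, 0 of 46 members were called in GS against Control, while 0.0211% of all genes were called higher and 0 lower. At unadjusted p under 0.05, 20 members were higher, against 3.58% of all genes, and 0 were lower, against 2.33%. All GS arrays lay above all Control arrays for 28 members, against 8.09% of all genes. The median was 0.38, and the lowest adjusted p was 0.495. Kif11 averaged 7.54 ± 0.348 in GS and 6.32 ± 0.213 in Control (SD, n = 3 arrays each), with an adjusted p of 0.495. Mki67 averaged 8.29 ± 0.40 in GS and 7.14 ± 0.143 in Control (SD, n = 3 arrays each), with an adjusted p of 0.645. Kif11, Mki67, Smc2, Smc4 and Top2a were called when GS replicate 3, GB replicate 2 and Control replicate 3 were left out together, with adjusted p between 0.0204 and 0.0493.

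With the Ctnnb1 allele alone, 0 of 46 members were called in GB against Control, against 0% of all genes in either direction. At unadjusted p under 0.05 the count was also 0, while 0.909% of all genes were higher and 0.19% lower. The lowest adjusted p was 0.99997, and the median was 0.07. The arrays of 5 members did not overlap and were higher, against 3.01% of all genes. GB replicate 2 split the members. Set against the mean of the other GB arrays, it was lower for Smc4 (-2.01), Cenpk (-1.29), Smc2 (-1.26) and Top2a (-1.0) and higher for Cdca8 (0.57), Cdc25c (0.46), Birc5 (0.40) and Ccnb2 (0.39). Its median over the members was 0.02, against 0.15 over all genes.

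The single-allele groups were compared with each other as well. In GS against GB, 0 of 46 members were called, against 0.00704% of all genes in each direction. At unadjusted p under 0.05, 15 were higher, against 4.42% of all genes. The GS arrays lay above the GB arrays without overlap for 27 members, against 4.45%, and the median was 0.31. The interaction asked whether the difference of GBS from GS was larger than that of GB from Control. It was called for 0 of 46 members, against 0.324% of all genes higher and 0.00704% lower. At unadjusted p under 0.05, 30 members passed, all of them higher, against 8.16% of all genes in either direction. The median interaction was 1.0, and the lowest adjusted p was 0.108, shared by Bub1, whose interaction was 1.80 ± 0.378, and Kif23, whose interaction was 1.20 ± 0.252. Prc1, Kif4 and Kif23 were called higher both with 3 deviating arrays left out and with the median of receptor genes as a covariate, Ccnb2 in the first of these alone and Bub1 in the second alone.

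The group means of the 46 members fell mostly into 2 orders. For 26 members the order from high to low was GBS, GS, GB and Control, and for 11 it was GBS, GS, Control and GB. These orders differ only in the places of GB and Control, whose arrays overlapped for most members. GBS had the highest mean for all but Espl1 and Cdc20. Within GBS the arrays kept a common order, with replicate 2 the highest for 44 members and replicate 3 the lowest for 40. In GS, replicate 2 was the lowest for 36. The median SD over the members was 0.460 in GBS, against 0.124 over all genes there, and it was 0.185 in GS, 0.193 in GB and 0.109 in Control. Aspm had the widest spread in GBS, with an SD of 0.733.

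Other genes of mitosis gave the wider setting. Of 120 such genes that are not members, 116 had a probe set and 89 were tested. In GBS against Control 28 rose, against 11% of all genes, and 0 fell, against 4.35%. At unadjusted p under 0.05, 2 were lower, against 18.7% of all genes. The median was 0.39. The lowest adjusted p values were those of Mastl, the Greatwall kinase that restrains a mitotic phosphatase (1.67, adjusted p = 0.000264), Haus6, a subunit of augmin (1.47, adjusted p = 0.000581), Knl1, the kinetochore platform of Bub1 (2.35, adjusted p = 0.000612) and Cks1b, a partner of cyclin-dependent kinases (1.28, adjusted p = 0.000776). Of these 89 genes, 16 rose in GBS against GS, against 3.56% of all genes, and 27 in GBS against GB, against 9.6%. In GS against Control 0 were called, against 0.0211% of all genes higher. At unadjusted p under 0.05, 9 were higher there, against 3.58%. In GB against Control 0 were called, against 0% of all genes, and 0 were higher at unadjusted p under 0.05, against 0.909%.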

How the data were processed

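Per the submitters' processing notes, the authors ran RMA with the Affymetrix Expression Console. The deposited values are on a log2 scale, as read from their range. Not given in the sources used here are the software version and the probe set library. The table held 35556 probe sets, of which 21789 carry 1 gene symbol in the platform annotation and 1621 several, which were not used. Symbols were updated by gene ID to RefSeq for 21698 of them.

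All 12 arrays entered 1 linear model of genotype means in limma 3.58.1 in R 4.3.3 (lmFit and eBayes, 8 residual degrees of freedom), with no further normalization. P-values were adjusted by Benjamini-Hochberg over the 14195 tested genes within each of 7 contrasts, two-sided, and called under 0.05. Errors of log2 differences are standard errors. The fit was tested on simulated data. Arrays give no read depth, so their number limits the precision. The labels call the replicates biological without naming animals, so p-values rest on the spread between these samples. That spread was estimated once per gene over all genotypes, although it differed between them. The median SD over the members was 0.460 in GBS and 0.109 in Control.

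Members, roles, marker lists and alternatives were chosen with earlier results of these data known. In each role, array values are given for the members of lowest adjusted p in GBS against Control. These were picked by the comparison they illustrate, so they are not typical of their role. Array values also stand for the member of highest adjusted p in each role, except Aurkb, and for Espl1. The 3 members of lowest adjusted p against GS and against GB are given too. The windows printed and the genes given by their difference alone were added to account for all members. Alternatives covered the limit on dim genes, normalization, the threshold, the arrays in the fit, a replicate block, and receptor-gene and Xist levels as covariates. Promoter windows came from RefSeq, GRCm38.p6.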

Additional observations from a re-analysis of the deposited data

How the results depend on the processing

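For GBS against Control, 27 to 39 members rose when single arrays were left out (27 without GBS replicate 2) and 28 to 39 under the other alternatives, and 24 of the 37 kept their call in all 23 alternatives that left the threshold as it was. Another 4 (Ttk, Kif4, Aspm and Anln) kept it wherever they passed the limit on dim genes, which they did not in every alternative. For GBS against GS the count of 26 became 12 at an adjusted p under 0.01, 3 with the Xist level as a covariate, 36 without GS replicate 3, GB replicate 2 and Control replicate 3, and 12 (without GS replicate 2) to 34 (without GB replicate 2) with single arrays left out. For GBS against GB the count of 35 became 13 with only the groups compared in the fit, 23 with the Xist covariate, and 26 (without GBS replicate 2) to 35 with single arrays left out. Members lower in GBS against GB numbered 0 to 1 with single arrays left out, the 1 being Espl1 without GB replicate 3. With those 3 arrays left out together, 39 members rose in GBS against Control and 36 in GBS against GB, 5 in GS against Control, and 4 in the interaction. The interaction was also called for 4 members with the receptor-gene covariate, and it and GS against Control gave 0 under the other alternatives. The causes of these shifts were not tested.

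Differences near 0 changed sign. Espl1 in GBS against GS was 0.00215 with quantile normalization, 0.0233 without the 3 deviating arrays, 0.0744 with the receptor-gene covariate, and -0.0883 (without GS replicate 1) to 0.0233 (without GS replicate 3) with single arrays left out. Espl1 in GBS against Control was 0.0637 with that covariate. Cdc20 in GBS against GB was 0.00246 with centred arrays, 0.0461 without the 3 deviating arrays, 0.180 with the receptor-gene covariate, and -0.163 (without GB replicate 3) to 0.0461 (without GB replicate 2) with single arrays left out, being 0.0105 without GBS replicate 3. Of 697 checks of named genes, 652 kept direction and call, 21 lost a call, 14 gained one and 10 changed sign.

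Same-numbered arrays of different genotypes deviated together in some pairs and apart in others. Correlations of their deviations ran from -0.82 to 0.74, with 7 of 18 pairs over 0.1. The highest were GS with Control in replicate 3 (0.74) and GS with GB in replicate 1 (0.72). With 3 arrays per genotype these correlations cannot decide whether the numbers pair the samples. With the replicate number as a block, 33 members rose in GBS against Control, 20 in GBS against GS and 31 in GBS against GB. The block ended the calls of Bub3 (adjusted p = 0.0587), Cdk1, Cdc25c and Ube2c in GBS against Control, and the receptor-gene covariate those of Smc4, Bub3, Ndc80 and Cdk1.

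Limits are the 3 arrays per genotype, the floor of dim probe sets, and whole tissue in which cell composition and RNA per cell cannot be told apart. GBS was tumor tissue and the other groups were forebrain. In every comparison with GBS, and in the interaction, genotype and kind of tissue therefore cannot be told apart.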
